A study of Mus musculus with 54 samples.

Results

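Glucose metabolism and carbohydrate-response genes of the liver were followed through 9 genes, chosen by gene symbol: Gckr, Pklr, Pck1, Fbp1, Pcx, Pygl, Gys2, Mlxipl and Txnip. All 9 were among the 20162 rows of the deposited table, and all 9 passed the filter on low values (a mean of at least 1 over all mice), together with 11431 rows in all. The data are liver transcriptomes of 54 wild-type male C57Bl/6J mice that ate a high-fat diet from the age of 8 weeks. After habituation to placebo pellets, the mice swallowed a gelatin pellet of their group every morning for 20 weeks. The pellet of the 14 control mice held no di-isononyl phthalate (DINP), a plasticizer, and the pellets of the other mice delivered DINP at a low dose of 1.5 (n = 13), a middle dose of 15 (n = 13) or a high dose of 150 mg/kg bw/d (n = 14). The high-fat diet, the pellet and single housing were thus shared by all groups, the controls included, and mice on a chow diet were not analysed here. The sequenced RNA came from the medial liver lobe.

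The liver stores glucose as glycogen after meals and releases it between meals, and the same hepatocytes can either break glucose down or make it anew. The carbohydrate response element binding protein, ChREBP, is encoded by Mlxipl and turns on genes of glycolysis and fat synthesis when sugar phosphates accumulate in the cell. It binds DNA together with its partner Mlx at a pair of E-boxes set a fixed distance apart, and Pklr and Txnip are its textbook targets. Libraries made from the 3′ ends of transcripts, as here, count all transcripts of a gene that share a 3′ end. Transcripts that differ only in their start, such as the liver and red cell forms of Pklr or the alpha and beta forms of Mlxipl, cannot be told apart.

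The start regions of Pklr and Txnip are shown because both genes are textbook ChREBP targets, both differed among the 4 groups by the test given below, and both hold a pair of E-box-like letters. RefSeq start regions of the build GRCm38.p6 were matched for 8 of the 9 genes (11 regions), and the gene without one is Gys2. The 250 bases before each start were searched on both strands. A loose pair, CANGNG and CNCNTG with 5 bases between them, stood before the second start of Pklr, from position -170 to -154, and before 0.454% of all 32851 regions searched. A pair of 2 copies of CACGNG with 5 bases between them stood before Txnip, from -85 to -69, and before 0.0457% of the regions. Position -1 is the base next to the start. Capitals mark these pairs and, before Txnip, also the single matches to CACGNG and one to TGTTTAC, a forkhead motif, on the other strand.
Pklr, chr3:89136373-89136622, plus strand: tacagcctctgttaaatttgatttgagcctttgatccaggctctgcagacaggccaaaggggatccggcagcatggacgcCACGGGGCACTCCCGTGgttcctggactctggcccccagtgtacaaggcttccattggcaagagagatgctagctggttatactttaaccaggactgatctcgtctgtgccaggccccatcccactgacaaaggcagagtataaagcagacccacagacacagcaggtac
Txnip, chr3:96557707-96557956, plus strand: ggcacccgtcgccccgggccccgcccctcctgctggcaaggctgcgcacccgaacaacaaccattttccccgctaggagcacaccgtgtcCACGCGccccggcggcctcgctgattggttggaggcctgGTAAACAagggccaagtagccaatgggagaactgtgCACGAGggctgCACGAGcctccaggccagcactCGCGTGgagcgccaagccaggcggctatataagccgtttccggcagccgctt
The palindrome CACGTG, found before 6.02% of all regions, stood before Mlxipl (from -98) and Pcx (from -248). The cyclic AMP response element core ACGTCA, found before 6.47%, stood before Pck1 from -91 to -86. A direct repeat of the kind bound by PPAR receptors, searched as 2 copies of AGGNCA with 1 base between them, was before none of the 11 regions and before 0.338% of all. A match is a description of letters and not a binding site.

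The values are transcript abundances (TPM, the usual length-corrected unit), rounded and scaled between mice by the authors, and are called scaled TPM below. Read numbers are not part of the table, no counting error can be given for a single value, and the spread between mice is the error throughout. Hepatocyte markers were abundant in every group: the summed scaled TPM of 8 markers was between 24430 and 51600. By the test given below, 1 of the 8 rose at the middle dose (beside 14.2% of all rows that passed in either direction). None passed at the low or the high dose (beside 1.2% and 2.17%). The libraries of the middle dose group stood apart. The slope of log2 values on log2 transcript length, measured against the control mean, was between -0.101 and 0.0505 in the controls, and was below all controls in 5 of the 13 mice at the middle dose (replicates 5 to 9, the lowest at -0.175) and in no other mouse. The slope on GC content was below all controls in 11 of 13 mice at the middle dose, in 2 of 14 at the high dose and in none of 13 at the low dose. Results at the middle dose are therefore also given without the 5 mice of low length slope. Both slopes were also removed from every library, and each gene named below as called at the middle dose against control then kept its call except Sord, Pfkl and Tm6sf2. These alternatives were chosen after the data were seen. The share of the summed values held by mitochondrially encoded genes was 12.5% ± 1.20 in the controls and 13.6% ± 1.94 at the high dose (mean ± SD, n = 14 in each). It was above all controls in 5 of 14 mice at the high dose, 2 of 13 at the middle and 2 of 13 at the low dose, and below all controls in 3 of 13 mice at the middle dose and 1 of 14 at the high dose. Its part in the results was not tested.

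Each dose was compared with control by limma on log2(value + 1), and a gene was called with a Benjamini-Hochberg adjusted p under 0.05 over all 11431 rows. Gys2 and Fbp1 were upregulated at the middle dose and Txnip at the high dose. At the low dose 0 of 9 members were called (beside 1.2% of all rows), at the middle dose 2 of 9 (beside 14.2%) and at the high dose 1 of 9 (beside 2.17%). A moderated F test for any difference among the 4 groups called 4 of 9 members (Txnip, Fbp1, Gys2 and Pklr), beside 26.7% of all rows. The median log2FC of the 9 genes was 0.06, 0.06 and -0.04 at the 3 doses, beside medians of 0.0028, -0.0010 and -0.0081 over all rows. The 3 comparisons share the 14 control mice. In liver tissue, a change in the number of hepatocytes and a change in RNA per hepatocyte cannot be told apart.

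**Figure D1:**
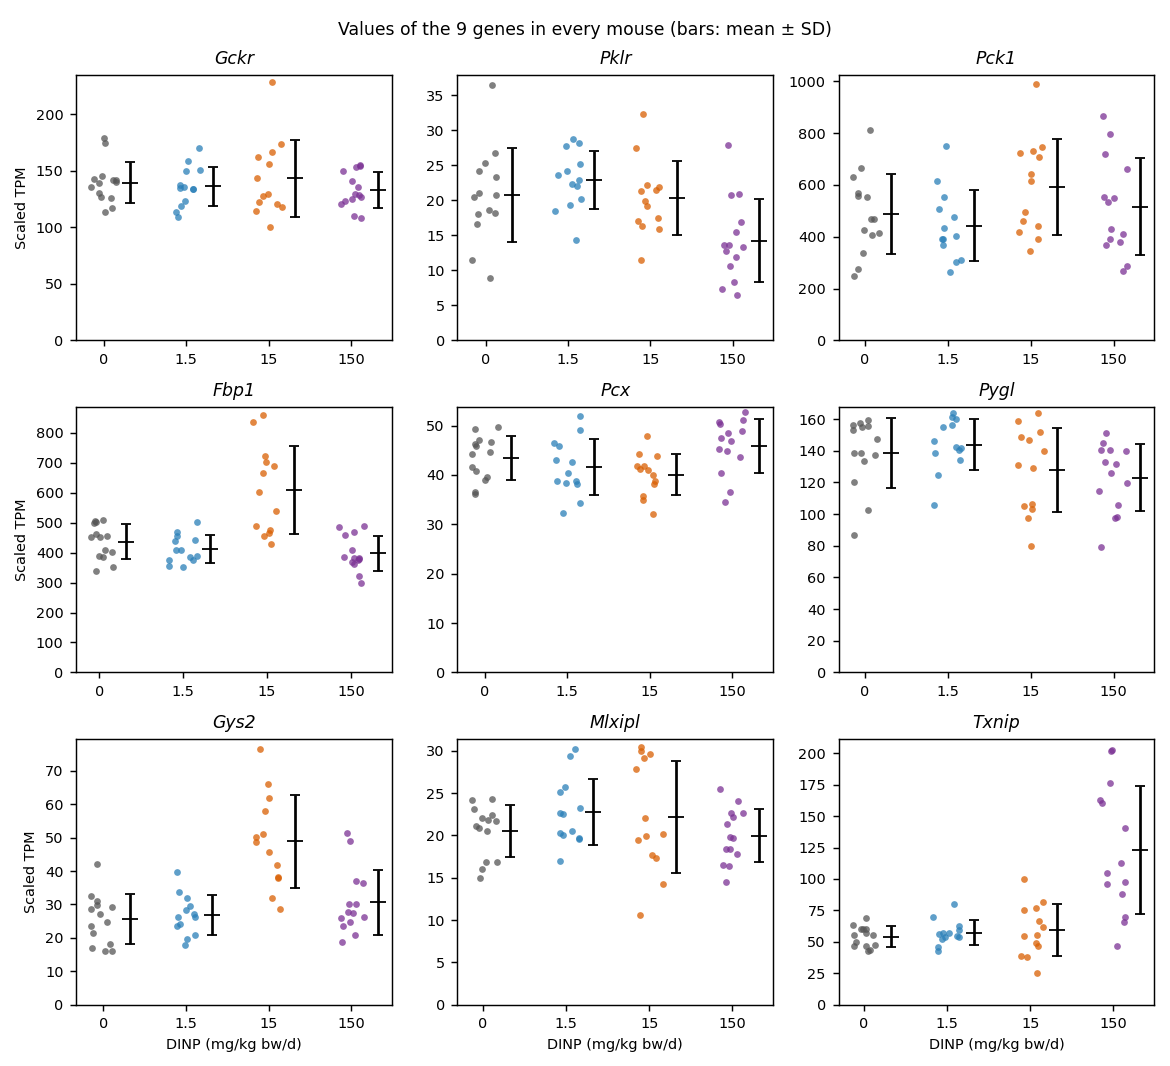
Scaled TPM of the 9 genes (vertical axes, linear and starting at 0) in each of the 54 mice, by DINP dose (horizontal axes, mg/kg bw/d). Each point is 1 mouse and the bar beside it is the mean ± SD. Gys2 and Fbp1 are high at the middle dose, where 8 of 13 mice are above the highest control for each gene, and Txnip is high at the high dose, where 12 of 14 mice are.

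Among the genes of glycogen, Gys2 encodes the liver glycogen synthase, which adds glucose to the growing chain. Gys2 was between 15.9 and 42.1 scaled TPM in the controls (median 25.9) and between 28.5 and 76.6 at the middle dose (median 48.7). All 13 mice at the middle dose were above the control median, and 8 were above the highest control, so that the groups overlapped in part. The mean rose from 25.5 ± 7.49 (SD, n = 14) to 49.0 ± 13.9 (SD, n = 13), a log2FC of 0.92 ± 0.15 (SE, limma adjusted p = 1.61e-05). This was 1.89-fold on the scale of value + 1. At the low dose, Gys2 was between 17.9 and 39.6 (median 26.3), and at the high dose between 18.8 and 51.3 (median 27.6). Neither differed from control by the test (log2FC 0.10 and 0.25, limma adjusted p = 0.854 and 0.430). The middle dose also differed from both neighbours: Gys2 was 0.82 ± 0.15 (log2, SE) higher at the middle than at the low dose, and its log2FC from the middle to the high dose was -0.66 ± 0.15 (SE, limma adjusted p = 0.000747). Leaving out any single mouse kept all 3 of these calls. Without the 5 mice of low length slope, the rise at the middle dose was 0.84 (limma adjusted p = 0.00151).
The 2 mice of that group whose GC slope was within the controls had 38.2 and 41.7 scaled TPM of Gys2, both above the control median and below the highest control.

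Pygl encodes the liver glycogen phosphorylase, which releases glucose phosphate from glycogen. Pygl was between 86.6 and 159.3 scaled TPM in the controls (median 143.2), between 105.8 and 163.6 at the low dose (median 142.6), between 79.8 and 163.7 at the middle dose (median 131.3) and between 79.0 and 151.1 at the high dose (median 128.8). The groups overlapped almost throughout, although 12 of 14 mice at the high dose were below the control median. The log2FC at the high dose was -0.17 (95% interval -0.370 to 0.0219, limma adjusted p = 0.430). At the middle dose the 5 mice of low length slope had 79.8 to 129.2 scaled TPM of Pygl, all below the control median. The other 8 had 105.4 to 163.7, so that the 2 sets overlapped. The log2FC at the middle dose was -0.128, and -0.125 after removal of the length and GC slopes (limma adjusted p = 0.432 and 0.446). The part of the libraries in this spread was not tested.

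Of 18 tested companion genes of glycogen metabolism, from a list of 25, none was called at the low or the middle dose (beside 1.2% and 14.2% of all rows) and 1 at the high dose (beside 2.17%). That gene was Pgm1, a phosphoglucomutase that links glucose phosphates to glycogen, with a mean of 64.2 scaled TPM in the controls and 74.2 at the high dose (log2FC 0.21 ± 0.05, SE, limma adjusted p = 0.0288). With every sample scaled to an equal sum the log2FC of Pgm1 was 0.11 and did not pass (limma adjusted p = 0.289), which left no call in the list. The median log2FC of the list was 0.06 at the middle dose and -0.04 at the high dose. Gys2 thus differed at the middle dose while no other tested gene of the glycogen list passed the test there, which does not show that those genes did not differ.

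Among the genes of gluconeogenesis, Fbp1 encodes the fructose bisphosphatase that commits sugar phosphates to glucose production. Fbp1 was between 339.3 and 508.1 scaled TPM in the controls (median 452.8) and between 427.6 and 859.1 at the middle dose (median 602.3). At the middle dose, 12 of 13 mice were above the control median and 8 were above the highest control. The mean rose from 436.6 ± 57.4 (SD, n = 14) to 610.2 ± 147.3 (SD, n = 13), a log2FC of 0.46 ± 0.09 (SE, limma adjusted p = 0.000409), which was under the log2FC of 0.5 that the study asked for. At the low dose Fbp1 was between 353.0 and 500.7 (median 407.3) and at the high dose between 296.9 and 488.7 (median 382.1), and no mouse of either group exceeded the highest control. Between doses, the log2FC of Fbp1 was 0.54 ± 0.09 for the middle against the low dose (SE, limma adjusted p = 4.02e-05) and -0.59 ± 0.09 for the high against the middle dose (SE, limma adjusted p = 4.21e-06).

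The rise of Fbp1 against control depended on the libraries kept. The 5 mice of low length slope had 690.2 to 859.1 scaled TPM of Fbp1, all above the highest control, and the other 8 mice had 427.6 to 666.4, of which 3 exceeded that control. Without those 5 mice the log2FC against control was 0.24 and no longer passed the test (limma adjusted p = 0.106). Without them the differences from the low dose (0.32, limma adjusted p = 0.0235) and from the high dose (-0.37, limma adjusted p = 0.00352) were smaller but still passed. After removal of the length and GC slopes from all libraries, the log2FC against control was 0.42 (limma adjusted p = 0.000300). The 2 mice at the middle dose whose GC slope was within the controls had 454.8 and 466.9 scaled TPM, inside the control range. Fbp1 has one of the shorter transcripts, with 15.3% of tested genes shorter (longest coding transcript 1479 bases). Gys2, Txnip and Pygl are near the middle (2657, 2827 and 2992 bases, with 42.2%, 46.0% and 49.5% shorter). Yet Pygl was below the control median in all 5 mice of low length slope. Txnip was above the highest control in 3 of those 5 and in 1 of the other 8. What part the libraries had in the rise of Fbp1 was not tested further.

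**Figure D2:**
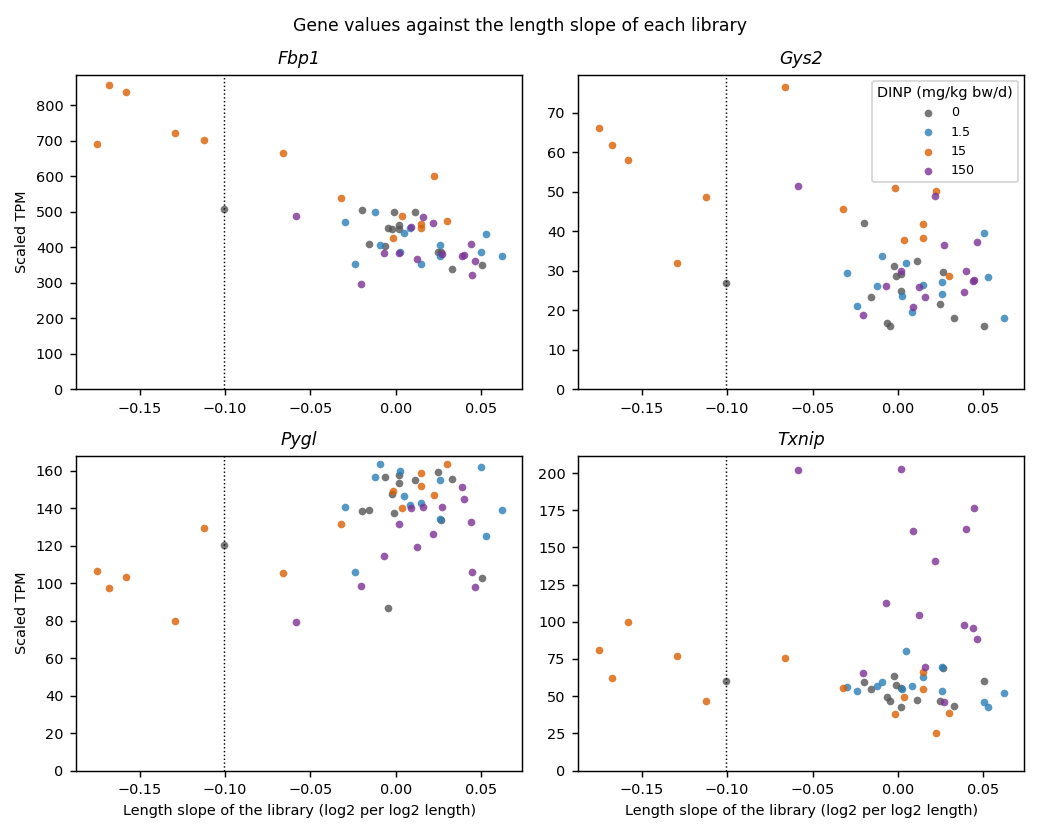
Scaled TPM of Fbp1, Gys2, Pygl and Txnip (vertical axes) against the length slope of each library (horizontal axes, log2 of the value per log2 of transcript length, relative to the control mean), with 1 point a mouse and colours for the dose. The dotted line is the lowest control. To its left lie only 5 mice at the middle dose, with Fbp1 above the highest control and Pygl below the control median in all 5. Txnip is above the highest control in 3 of these 5 and in 1 of the other 8 mice at the middle dose. Gys2 at the middle dose is high on both sides, and Txnip at the high dose is high with slopes inside the control range.

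Pck1 encodes the cytosolic phosphoenolpyruvate carboxykinase, a hormone-regulated enzyme of glucose production. It varied widely in every group: from 249.98 to 811.0 scaled TPM in the controls (median 468.6), from 263.4 to 750.6 at the low dose (median 404.5), from 343.8 to 989.6 at the middle dose (median 617.0) and from 266.4 to 865.2 at the high dose (median 482.2). The ranges overlapped almost entirely. The log2FC at the middle dose was 0.29 (95% interval -0.0702 to 0.642, limma adjusted p = 0.303), and no comparison of Pck1 was called. Its standard deviation within groups, 0.474 on the log2 scale, was above that of 87% of the 500 genes nearest in mean, so that only large differences could have been seen.

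Pcx encodes pyruvate carboxylase, the mitochondrial enzyme that feeds pyruvate into gluconeogenesis. It was the tightest of the 9 genes, with a within-group standard deviation of 0.169 (log2), below that of all but 10.0% of its neighbours in mean. Pcx was between 36.2 and 49.6 scaled TPM in the controls (median 44.4), between 32.3 and 52.0 at the low dose (median 40.5), between 32.1 and 47.8 at the middle dose (median 40.9) and between 34.5 and 52.8 at the high dose (median 47.2). At the middle dose 12 of 13 mice had less Pcx than the control median, and at the high dose 10 of 14 had more, yet neither dose differed from control by the test (log2FC -0.11 and 0.08, limma adjusted p = 0.289 and 0.665). Pcx was higher at the high than at the middle dose by a log2FC of 0.19 ± 0.07 (SE, limma adjusted p = 0.0418). This call was narrow. It was lost when any of 13 of the 27 mice was left out (replicates 2, 3, 7, 8 and 11 at the middle dose and 5, 6, 8 to 12 and 14 at the high dose, adjusted p up to 0.0913), and after removal of the length and GC slopes the log2FC was 0.07 (limma adjusted p = 0.525).

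Of 19 tested companion genes of gluconeogenesis, from a list of 21, 2 rose and 1 fell at the middle dose (beside 14.2% of all rows called in either direction). None was called at the low or the high dose (beside 1.2% and 2.17%). Mdh1, the cytosolic malate dehydrogenase, rose from a mean of 151.1 to 199.9 scaled TPM (log2FC 0.40 ± 0.07, SE, limma adjusted p = 8.49e-05). Slc37a4, the transporter that brings glucose phosphate into the endoplasmic reticulum, rose from 47.5 to 65.4 (log2FC 0.46 ± 0.13, SE, limma adjusted p = 0.0113). Crtc2, a coactivator of the cyclic AMP response, fell from 11.5 to 8.41 (log2FC -0.43 ± 0.10, SE, limma adjusted p = 0.00286). Without the 5 mice of low length slope, Mdh1 still passed the test (0.35, limma adjusted p = 0.00340) and Slc37a4 and Crtc2 did not (0.33 and -0.33, limma adjusted p = 0.159 and 0.0615).

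Among the genes of glycolysis, Pklr encodes the liver pyruvate kinase, which catalyses the last step to pyruvate. Pklr was between 8.83 and 36.4 scaled TPM in the controls (median 20.6), between 14.3 and 28.7 at the low dose (median 22.9), between 11.5 and 32.4 at the middle dose (median 19.9) and between 6.41 and 27.9 at the high dose (median 13.4). At the high dose 11 of 14 mice had less Pklr than the control median and 3 had less than the lowest control. The mean was 20.7 ± 6.71 (SD, n = 14) in the controls and 14.2 ± 5.88 (SD, n = 14) at the high dose, a log2FC of -0.54 ± 0.16 (SE) that narrowly missed the threshold (limma adjusted p = 0.0562). Against the other doses Pklr was lower at the high dose: the log2FC was -0.72 ± 0.16 from the low dose (SE, limma adjusted p = 0.00435) and -0.54 ± 0.16 from the middle dose (SE, limma adjusted p = 0.0128). Both held when any single mouse was left out. The comparison with control passed the threshold when controls 8 or 9 or mice 6, 8 or 12 at the high dose were left out (log2FC -0.58 to -0.62, adjusted p from 0.0160 to 0.0369), and when every sample was scaled to an equal sum (-0.62, limma adjusted p = 0.0152) or samples were weighted by quality (-0.66, limma adjusted p = 0.00284). Its adjusted p rose to 0.117 without mouse 7 at the high dose and was 0.130 by the Wilcoxon rank-sum test.

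Gckr encodes the regulatory protein that binds and restrains glucokinase in the nucleus. Gckr was between 113.9 and 178.7 scaled TPM in the controls (median 139.6), between 109.5 and 170.0 at the low dose (median 134.8), between 100.5 and 228.9 at the middle dose (median 129.8) and between 108.3 and 155.2 at the high dose (median 129.1). The groups overlapped throughout. Its log2FC against control lay between -0.07 and 0.02 at the 3 doses, and the 95% intervals together ran from -0.235 to 0.189, so that changes of the size seen for Gys2 or Txnip were outside them. The spread at the middle dose was wider than elsewhere (SD 34.1, against 15.8 to 18.4 in the other groups), with 120.5 to 228.9 scaled TPM in the 5 mice of low length slope and 100.5 to 156.2 in the other 8.

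Of 22 tested companion genes of glycolysis and fructose use, from a list of 29, 3 rose and 1 fell at the middle dose (beside 14.2% of all rows called in either direction). At the high dose 2 fell (beside 2.17%), and none was called at the low dose (beside 1.2%). Tkfc, the triokinase that phosphorylates glyceraldehyde from fructose, fell from 113.1 to 84.8 at the high dose (log2FC -0.40 ± 0.10, SE, limma adjusted p = 0.0189). Gapdh rose from 52.4 to 79.7 at the middle dose (limma adjusted p = 0.0121), but its log2FC was 0.52 with and 0.18 without the 5 mice (limma adjusted p = 0.531). At the middle dose the polyol pathway gene Sord had a log2FC of 0.24 (limma adjusted p = 0.0413) and the phosphofructokinase gene Pfkl one of -0.34 (limma adjusted p = 0.0261). Pfkl did not pass without the 5 mice (-0.28, limma adjusted p = 0.169) or with the slopes removed (-0.23, limma adjusted p = 0.124). Sord passed without the 5 mice (0.30, limma adjusted p = 0.0166), but not with the slopes removed (0.23, limma adjusted p = 0.0590), with equal sums (0.19, limma adjusted p = 0.0535) or with quantile normalization (0.13, limma adjusted p = 0.232). The median of the list was 0.12 at the middle dose and -0.12 at the high dose, and at the high dose 16 of the 22 genes were below 0. Without the 5 mice the median at the middle dose was -0.02.

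**Figure D3:**
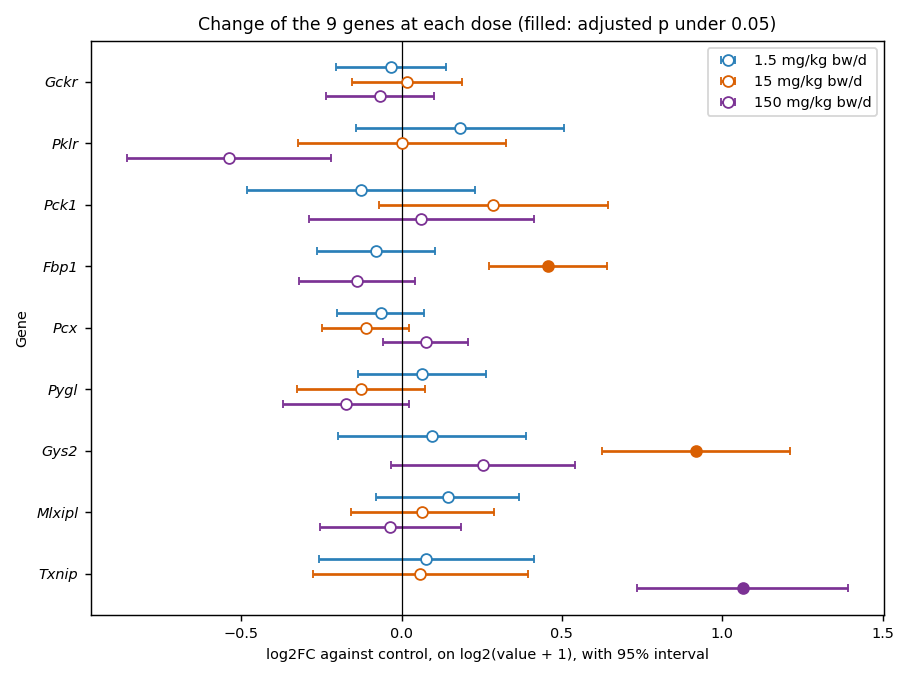
log2FC against control on log2(value + 1) (horizontal axis) of the 9 genes (vertical axis) at the low, middle and high dose. Points are limma estimates, lines are 95% intervals without adjustment, and filled points have an adjusted p under 0.05. Filled points are Fbp1 and Gys2 at the middle dose and Txnip at the high dose, and the interval of Pklr at the high dose (-0.857 to -0.220) excludes 0 although its adjusted p is 0.0562.

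Mlxipl, the gene of ChREBP itself, did not differ by the test at any dose. Mlxipl was between 15.0 and 24.3 scaled TPM in the controls (median 21.4), between 17.0 and 30.2 at the low dose (median 22.6), between 10.6 and 30.4 at the middle dose (median 20.1) and between 14.5 and 25.5 at the high dose (median 19.7). At the high dose the log2FC was -0.04 (95% interval -0.255 to 0.185, limma adjusted p = 0.930). At the middle dose the values spread to both sides, with 5 of 13 mice above the highest control and 2 below the lowest, and the mean was 22.2 ± 6.60 (SD, n = 13) beside 20.5 ± 3.06 (SD, n = 14) in the controls. The 5 mice of low length slope had 10.6 to 27.8 scaled TPM (1 above the highest control). The other 8 had 17.3 to 30.4 (4 above it). The log2FC was 0.06 with and 0.23 without those 5 mice (limma adjusted p = 0.759 and 0.226). The part of the libraries in this spread was not tested.

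Txnip encodes an arrestin-fold protein that binds thioredoxin and lowers glucose uptake. Txnip was between 42.7 and 69.1 scaled TPM in the controls (median 55.2) and between 46.3 and 202.7 at the high dose (median 108.7). At the high dose 13 of 14 mice were above the control median and 12 were above the highest control. The mean rose from 54.1 ± 8.08 (SD, n = 14) to 123.3 ± 51.0 (SD, n = 14), a log2FC of 1.06 ± 0.16 (SE, limma adjusted p = 2.42e-05). At the low dose Txnip was between 42.6 and 80.3 (median 56.3) and at the middle dose between 25.1 and 99.8 (median 55.4). Both groups overlapped the controls, with 2 of 13 and 4 of 13 mice above the highest control and 1 and 3 below the lowest. The rise was thus also seen against the lower doses, with a log2FC of 0.99 ± 0.17 from the low dose (SE, limma adjusted p = 0.000119) and 1.00 ± 0.17 from the middle dose (SE, limma adjusted p = 1.74e-05). Leaving out any single mouse kept the log2FC against control between 1.00 and 1.16 and its adjusted p at most 9.03e-05.

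Of the 2 textbook ChREBP targets among the members, Txnip was thus higher at the high dose than in the controls. Pklr, with a log2FC of -0.54, did not pass the test against control (limma adjusted p = 0.0562). The paper also reports Txnip as enriched at the high dose and lists it with genes regulated by PPAR receptors. Which regulator acted on Txnip was not tested here. Of 27 tested companion genes from a list of 30 ChREBP partners and targets, none rose and 2 fell at the high dose (beside 2.17% of all rows called), Tkfc among them. At that dose 19 of the 27 were below 0, with a median log2FC of -0.13. At the middle dose 1 rose and 2 fell (beside 14.2% of all rows), and the median was 0.04. Those that fell were Mlx, the partner of ChREBP (33.6 to 27.7 scaled TPM, log2FC -0.28 ± 0.09, SE, limma adjusted p = 0.0276), and Tm6sf2, a lipoprotein assembly gene (40.9 to 33.8, log2FC -0.29 ± 0.10, SE, limma adjusted p = 0.0420). Neither passed without the 5 mice of low length slope (limma adjusted p = 0.126 and 0.316), and Tm6sf2 did not with the slopes removed (limma adjusted p = 0.0538).

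Of 12 tested genes of arrestins, thioredoxins and related proteins, from a list of 13, 1 fell at the high dose (beside 2.17% of all rows called). At the middle dose 1 rose and 1 fell (beside 14.2%), and none was called at the low dose (beside 1.2%). Arrdc3, another arrestin-fold gene, fell at the high dose from 33.9 to 22.3 scaled TPM (log2FC -0.60 ± 0.15, SE, limma adjusted p = 0.0170), in the direction opposite to Txnip. At the middle dose Txn1, the thioredoxin that Txnip binds, rose from 342.5 to 502.2 (log2FC 0.53 ± 0.10, SE, limma adjusted p = 0.000296) and Ddit4, a stress-induced inhibitor of mTORC1, fell from 10.8 to 6.66 (log2FC -0.70 ± 0.19, SE, limma adjusted p = 0.00700). Neither passed the test without the 5 mice (0.33 and -0.49, limma adjusted p = 0.0648 and 0.161). Of 6 tested pentose phosphate genes none was called at any dose. Of 5 tested sugar transporters 1 was called, at the middle dose (Slc37a4, above). The shares of all rows called were 1.2%, 14.2% and 2.17% at the low, middle and high dose.

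Clock genes were measured beside these genes because glucose production and glycogen follow the hour of the day. Of 15 tested clock genes, from a list of 17, 4 rose at the middle dose (beside 14.2% of all rows called in either direction). No other dose had a call (beside 1.2% at the low and 2.17% at the high dose). The medians were 0.17, 0.28 and 0.10 at the 3 doses. Dbp rose from 54.2 to 90.4 scaled TPM (log2FC 1.00, limma adjusted p = 0.0125), Usp2 from 25.8 to 50.2 (1.37, limma adjusted p = 0.00895), Per3 from 4.17 to 7.32 (0.75, limma adjusted p = 0.00557) and Nr1d2 from 7.14 to 9.98 (0.42, limma adjusted p = 0.00158). Without the 5 mice of low length slope 3 of these passed and Dbp did not (0.89, limma adjusted p = 0.118). They moved at the same dose as Gys2 and Fbp1, and their part in those results was not tested.

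**Figure D4:**
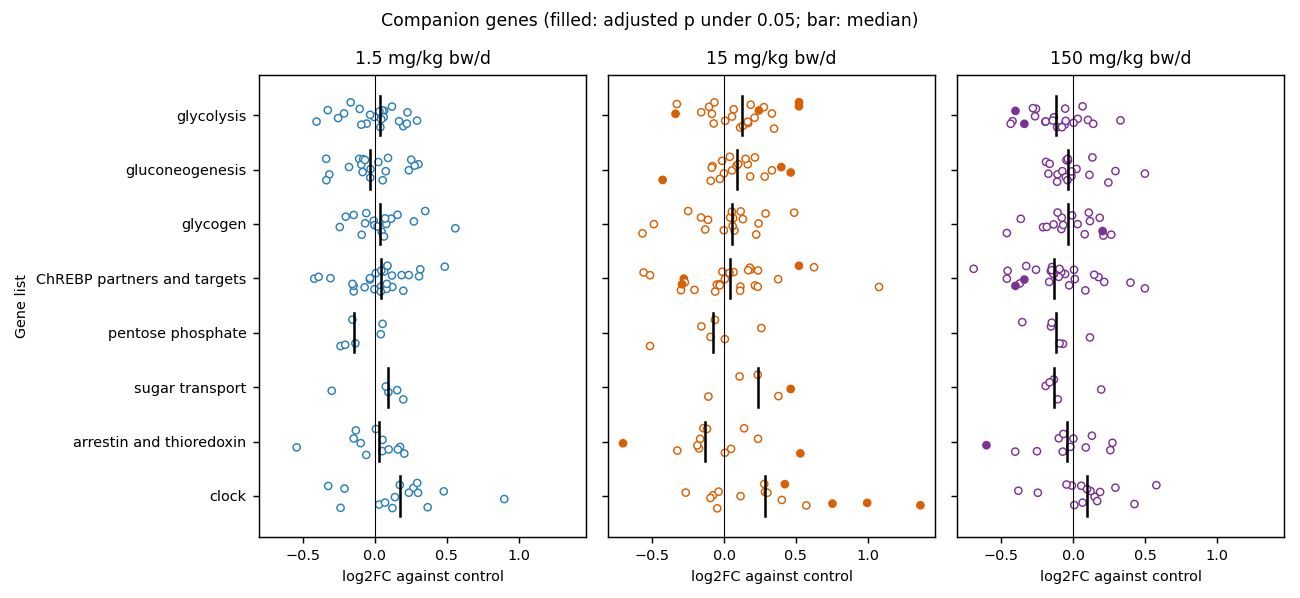
log2FC against control (horizontal axes) of the tested genes of the 8 companion lists (vertical axis) at the low, middle and high dose. Each circle is 1 gene, filled with an adjusted p under 0.05, and the black bar is the median of the list. No circle is filled at the low dose, and the medians of the glycolysis list lie at 0.12 at the middle dose and -0.12 at the high dose.

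Markers of other cells gave few calls. None of the tested markers of macrophages (8), sinusoidal endothelium (6), stellate cells (6), cholangiocytes (3), lymphocytes and neutrophils (3) or erythroid cells (5) was called against control at any dose. Over all rows, 1.2%, 14.2% and 2.17% were called at the low, middle and high dose. All 6 periportal markers were above 0 at the middle dose, with 1 called and a median log2FC of 0.28, and their summed level was between 1348 and 1911 scaled TPM, beside 1095 to 1890 in the controls. All 6 pericentral markers were also above 0 there, with 1 called and a median of 0.23. At the high dose all 6 pericentral markers were above 0 (median 0.20), 5 of 6 periportal markers were below 0 (median -0.10) and all 6 stellate cell markers were below 0 (median -0.21). The summed level of the stellate markers was then between 123.4 and 197.7, beside 119.6 to 349.4 in the controls. All 5 erythroid markers were below 0 at the low dose (median -0.78) and at the middle dose (median -0.32). Of the adipocyte markers 1 of 3 tested rose at the high dose (beside 2.17% of all rows called), with 2 above 0 and 1 below 0. The adipocyte list includes Cfd, which the paper names among its most significant liver genes at that dose. The summed level of the list was then between 21.2 and 91.7, beside 17.2 to 81.0 in the controls. The part of these cells in the changes of Gys2, Fbp1 and Txnip was not tested.

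Between doses, the members called were 2 of 9 for the middle against the low dose (Gys2 and Fbp1, beside 21.4% of all rows), 2 of 9 for the high against the low dose (Txnip and Pklr, beside 4.61%) and 5 of 9 for the high against the middle dose (Txnip and Pcx higher, Fbp1, Gys2 and Pklr lower, beside 20.0%). The order of the dose groups therefore differed from gene to gene. Gys2 and Fbp1 were highest at the middle dose, and the remaining 3 groups did not differ from each other by the test. Txnip was highest at the high dose, and the 3 lower groups did not differ from each other by the test. Pklr was lowest at the high dose, which differed from the low and the middle dose but not from control by the test, while Gckr, Pck1, Pygl and Mlxipl had no pair of groups that differed by the test.

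The members were also compared across mice of the same group, as deviations from the group mean of log2(value + 1). Of 36 pairs, 6 were correlated with an adjusted p under 0.05 for both Pearson's r and Spearman's rho by 2-sided permutation within groups, and all 6 were positive. The count was 5 with equal sums and 5 without subtraction of the group means. Pklr varied with Pygl (r = 0.59, rho = 0.46, permutation p = 1e-05 for r, the smallest that the permutations can give, and 0.00081 for rho, adjusted p = 0.00036 and 0.00972). The r of this pair was 0.80, 0.57, 0.64 and 0.44 within the control, low, middle and high dose groups, and 0.52 without the 2 mice farthest from the median of Pklr. Pygl also varied with Mlxipl (r = 0.55, rho = 0.46, permutation p = 7e-05 and 0.00162, adjusted p = 0.00126 and 0.0117), Pklr with Pcx (r = 0.43, rho = 0.45, permutation p = 0.00125 and 0.00115, adjusted p = 0.009 and 0.0103), and Gckr with Txnip (r = 0.38, rho = 0.40, permutation p = 0.00736 and 0.00502, adjusted p = 0.0442 and 0.0258). Without the 2 farthest mice, r was 0.41, 0.35 and 0.33 for these 3 pairs. The within-group values were positive in all 4 groups for Pygl with Mlxipl and for Gckr with Txnip, but for Pklr with Pcx r was -0.09 at the low dose.

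Fbp1 varied with Gckr (r = 0.56, rho = 0.51, permutation p = 0.00013 and 0.00026, adjusted p = 0.00156 and 0.00936) and with Gys2 (r = 0.47, rho = 0.47, permutation p = 0.00075 and 0.00068, adjusted p = 0.00675 and 0.00972), positively in each of the 4 groups and with r of 0.53 and 0.44 without the 2 farthest mice. Without the 5 mice of low length slope, r over 49 mice was 0.39 for Fbp1 and Gckr, 0.50 for Fbp1 and Gys2, 0.39 for Pygl and Mlxipl and 0.61 for Pklr and Pygl. Within the 13 mice of the middle dose r was -0.84 for Fbp1 and Pygl and -0.73 for Mlxipl and Txnip, the 2 pairs with the lowest r in that group. In the control, low and high dose groups r was -0.003, 0.21 and 0.15 for Fbp1 and Pygl. For Mlxipl and Txnip it was 0.04, -0.08 and -0.19. Pooled over all 54 mice, r was -0.30 and -0.37 for the 2 pairs. Over the 49 mice without those of low length slope it was -0.03 and -0.25. These 2 pairs were not tested within the middle dose group. In the low dose group the 2 pairs with the lowest r were Pcx and Mlxipl (-0.81) and Gckr and Pck1 (-0.71), also not tested there.

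**Figure D5:**
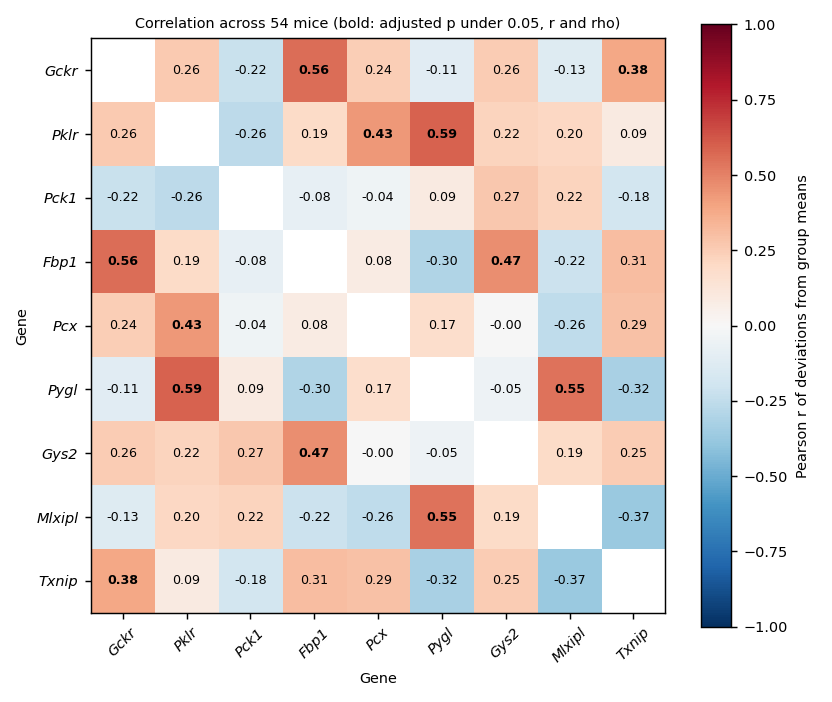
Pearson r between each pair of the 9 genes (both axes) over 54 mice, as deviations of log2(value + 1) from the group means, with the colour scale from -1 to 1. Bold values have an adjusted p under 0.05 for r and for rho. The 6 bold pairs are all positive, with r from 0.38 to 0.59.

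The genes outside the members that varied most like each of them across the 54 mice are given as a description. For Pklr these were Acly (r = 0.79), Fasn (0.76) and Thrsp (0.75), 3 genes of fat synthesis. None of the 3 passed the test at any dose. Their log2FC was 0.12, -0.03 and 0.49 at the low dose, 0.19, -0.05 and 1.08 at the middle dose (limma adjusted p = 0.674, 0.944 and 0.0546) and -0.37, -0.33 and -0.14 at the high dose (limma adjusted p = 0.523, 0.687 and 0.920). For Fbp1 they were Cyc1 (r = 0.81), Rps27l (0.80) and Atp5f1e (0.80), and for Gys2 Atp5f1a (0.70), Abhd14b (0.69) and Ube2g1 (0.66). At the middle dose the log2FC was 0.04, 0.54 and 0.46 for the genes like Fbp1 (limma adjusted p = 0.861, 0.0013 and 0.0025). It was 0.24, 0.17 and -0.07 for those like Gys2 (limma adjusted p = 0.0097, 0.163 and 0.568). For Txnip they were Add1 (r = 0.67), Rras (0.66) and Cst3 (0.64), whose log2FC at the high dose was -0.07, -0.17 and 0.08, beside 1.06 for Txnip. Mlxipl varied most like Pigr, BC024386 and Hmgn5 (r = 0.74 to 0.79), Pygl like Asgr1, Ly6g2 and Haao (0.73 to 0.75), Pcx like Gm32468, Rdh16 and Hmgcs1 (0.76 to 0.78), Gckr like Bhmt2, Pex16 and Gstk1 (0.70 to 0.75) and Pck1 like N4bp2l1, Akr1c19 and Scarb2 (0.59 to 0.69). Pigr and Hmgn5 passed the test at the middle dose (log2FC 0.68 and 0.66, limma adjusted p = 0.00074 and 2.28e-05), and BC024386 did not (0.01, limma adjusted p = 0.975). All r in this list were computed over the 54 mice, the 5 of low length slope included, and not without those 5.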

How the data were processed

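Total RNA of the medial liver lobe was made into QuantSeq 3′ mRNA-Seq libraries and aligned and quantified by the authors against GRCm38 in the nf-core/rnaseq pipeline, with STAR, RSEM and Salmon. The deposited table holds a signal: in each sample the values are whole multiples of 1 step (0.764 to 1.11), and the whole numbers sum to 948342 to 980641, as for TPM rounded and divided by size factors by the authors. The sequencing depth is unknown, and no test for counts was run. The 9 genes and all lists were chosen with earlier results of these data known.

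The test was limma 3.58.1 under R 4.3.3, fitted on log2(value + 1) to all 4 groups together with trended eBayes. It covered the 11431 rows whose mean was at least 1, and p-values were adjusted by Benjamini-Hochberg over these rows. The method was tested on simulated data. Correlations used 100000 permutations within groups. Length and GC content came from the longest coding transcript of GENCODE M21 (9 of 9 members, 86.2% of tested rows). Named were all 9 members at each dose, at most 6 called genes per companion list and the 3 genes most correlated with each member. One called companion gene is counted in its lists but not reported here. Same-numbered samples of different groups did not deviate together (mean correlation -0.0025 over 79 pairs), so that the numbers were not used as pairs. Mice are the replicates.

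The alternatives were a pseudocount of 0.1 or 5, a minimum mean of 5 or none, quantile normalization, equal sums, 2 groups alone, array quality weights, robust eBayes, a Wilcoxon rank-sum test, a replicate block and each mouse left out. Added after the data were seen were removal of length and GC slopes and exclusion of libraries with a slope below all controls. Companion counts are not independent evidence.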

Additional observations from a re-analysis of the deposited data

How the results depend on the processing

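Of 54 comparisons of a member (9 genes, 6 pairs of groups), 12 were called, and none of the 12 changed direction under any alternative or with any mouse left out. Outside the exclusion of libraries by GC slope, which left 2 mice at 15 mg/kg bw/d, 2 of the 12 lost their call under some setting: Fbp1 at 15 mg/kg bw/d against control and Pcx at 150 against 15. Without the libraries of low GC slope, no member was called in the comparisons of 15 with control, with 1.5 or with 150 mg/kg bw/d (0 in each, so that 0 were called past a log2FC of 0.5), and 1, 1 and 9 of all rows were called. With these 2 mice the log2FC of Gys2 was 0.68 against control and 0.59 against 1.5, that of Fbp1 was 0.090 against control, and for 150 against 15 Txnip was 0.91 and Pklr -0.73. The groups were not paired: with the replicate number as a block, 67 rows were called at 1.5 mg/kg bw/d, the block changed the call of 1 member (Pcx, 150 against 15, log2FC 0.18) and of the named companion genes Sord and Tm6sf2 (15 against control, limma adjusted p = 0.0682 and 0.0563), and Pklr at 15 mg/kg bw/d was -0.0012. With slopes removed and the block, 68 and 1063 rows were called at 1.5 and 15 mg/kg bw/d.

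Counts over all rows moved more. At 1.5 mg/kg bw/d, 137 rows became 59 with no filter, 82 with equal sums, 277 with 2 groups alone, 297 with array weights, 257 with the Wilcoxon test, 293 without low length slopes, 330 without low GC slopes, and 60 to 159 with 1 mouse left out. At 15 mg/kg bw/d, 1621 rows became 1069 with 2 groups alone, 833 with the Wilcoxon test and 591 without low length slopes, where 1 member was called in place of 2. With no log2FC threshold, 2 members counted at 15 mg/kg bw/d in place of 1. At 150 mg/kg bw/d, 248 rows became 375 with 2 groups alone, 488 with array weights, 435 with the Wilcoxon test and 405 without low length slopes. There, 2 members were called in place of 1, with Pklr added, under a minimum mean of 5, equal sums, array weights and without low length slopes, and 1 to 2 with 1 mouse left out. Between doses, 2449 rows for 15 against 1.5 became 1505 with array weights, 692 without low length slopes and 1404 with the Wilcoxon test. For 150 against 1.5, 527 rows became 806 with equal sums and 812 without low GC slopes, and for 150 against 15, 2282 became 917 without low length slopes and 1402 with the Wilcoxon test.

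Some differences that were never called changed sign, and not all of them were near 0. The main log2FC of Pck1 was 0.29 for 15 against control and -0.22 for 150 against 15. For 15 against 1.5 it was -0.19 for Pygl and -0.18 for Pklr. For Gckr, 15 against control was -0.049 (quantile), -0.035 (equal sums), -0.051 (array weights), -0.14 (without low length slopes), -0.021 (without low GC slopes) and -0.041 to 0.057 with 1 mouse left out. Against 1.5 it was -0.018, -0.0028, -0.0092 and -0.11 under the first 4 of these and -0.0073 to 0.091 with 1 mouse left out, and 150 against 15 was 0.072 without low length slopes. For Pklr, 15 against control was -0.0044 (pseudocount 5), -0.0093 (quantile), -0.049 (equal sums), -0.068 (array weights) and -0.082 to 0.066 with 1 mouse left out, and 15 against 1.5 was 0.026 without low GC slopes. For Pck1, 15 against control was -0.080 and 150 against 15 was 0.28 without low GC slopes, and 150 against control was -0.032 with equal sums and -0.0066 to 0.13 with 1 mouse left out. For Pcx, 15 against control was 0.011 with slopes removed, 0.017 with the block as well and 0.041 without low GC slopes, 15 against 1.5 was 0.089, 0.089 and 0.11 under the same, and 150 against control was -0.016 with equal sums. For Pygl, 1.5 against control was -0.0051 with array weights, 15 against control was 0.056 without low length slopes and 0.18 without low GC slopes, 15 against 1.5 was 0.12 without low GC slopes, and 150 against 15 was -0.100 to 0.00057 with 1 mouse left out. For Mlxipl, 15 against control was -0.11 and 150 against 15 was 0.069 without low GC slopes, and 15 against 1.5 was 0.033 with array weights, 0.027 with slopes removed with or without the block, and 0.084 without low length slopes. For Txnip, 15 against control was -0.031 with array weights, -0.16 without low length slopes and -0.010 to 0.15 with 1 mouse left out, and 15 against 1.5 was 0.093 without low GC slopes and -0.088 to 0.075 with 1 mouse left out. The cause of these changes was not tested.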
